A study of Mus musculus with 6 samples.

Results

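The potassium channels opened by intracellular calcium were followed through 8 genes in messenger RNA from the mouse nucleus accumbens core, a ventral striatal region known for its role in reward. The genes were taken by symbol, and all 8 were among the 24532 genes of the deposited table. Kcnma1 encodes the pore of the BK channel, Kcnmb1, Kcnmb2 and Kcnmb4 encode its beta subunits, Kcnn1, Kcnn2 and Kcnn3 encode the pores SK1, SK2 and SK3, and Kcnn4 encodes the intermediate-conductance relative of the SK channels. Together they had 31 RefSeq transcripts, of which 22 belonged to Kcnma1. A filter on low counts left 7 of the 8 genes among 15774 tested genes, and Kcnn4 fell under it.

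The 6 libraries, 3 titled control and 3 titled ethanol, came from wild-type adolescent male mice, for which the labels give postnatal days 35 to 55. These days do not span the 27 days of drinking given next, so the age at tissue collection is not taken from them. The labels describe fear conditioning to a context, then 6 intraperitoneal injections of 20% ethanol over 6 h (1.8 g/kg first and 1.2 g/kg afterwards), fear extinction, 27 days of every-other-day drinking, and tissue collection 24 h later. They give this treatment for control and ethanol samples alike, so the groups rest on the titles. In which step the treatment of the control mice differed is unknown. Nothing in the labels ties each sample to an animal of its own. The spread that p-values measure here is therefore one between samples and may be technical.

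BK channels open when the membrane is depolarised and calcium rises, and they shorten action potentials and drive the fast part of the afterhyperpolarisation. SK channels do not sense voltage. They carry calmodulin as their calcium sensor and produce the medium afterhyperpolarisation that limits repeated firing. Ethanol is known to act on BK channels, where the beta4 subunit and the splice form of the pore change the response, and SK channels of the accumbens have been studied in alcohol drinking.

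The libraries held 35898026 to 67399599 estimated reads, and 3 reads stood for 0.0478 to 0.0820 CPM (estimated reads per 1000000 reads, scaled with TMM factors, which even out differences in composition between libraries). All 7 markers listed for medium spiny neurons, and all 4 each for those of the direct and of the indirect pathway, had reads in every library. The libraries differed in the lengths of the transcripts that held their reads. The mean transcript length, weighted by reads, was 3464, 3390 and 3307 bases in control 1, 2 and 3, and 3589, 3010 and 3654 bases in ethanol 1, 2 and 3. Ethanol 1 and ethanol 3 thus had the longest mean and ethanol 2 the shortest, with the control libraries between them. Results are therefore also given without ethanol 2. Between the groups the summed CPM of 4 marker lists did not overlap. Of single tested genes 17.8% had no overlap, and no matching share was computed for sums over lists. Some gaps were narrow, such as 28.1 CPM in control 3 and 27.4 CPM in ethanol 1 for meningeal fibroblasts. Medium spiny neuron markers were higher in ethanol (1293, 1381 and 1157 in the controls, beside 1744, 2132 and 1414), while those of cortical glutamatergic neurons, of smooth muscle and mural cells and of meningeal fibroblasts were lower. The cortical sum was 328, 73.5 and 110 CPM in the controls, beside 33.8, 18.2 and 71.3 CPM in ethanol 1, 2 and 3, with 4 of 5 markers lower. Choroid plexus markers summed to 406 CPM in control 3 and to 9.36 to 16.5 CPM elsewhere. Indirect pathway markers summed to 1649 CPM in ethanol 2 and to 657 to 850 CPM elsewhere. Those of red blood cells summed to 446 CPM in ethanol 2 and to 112 to 225 CPM elsewhere. Mean transcript length was thus not the only trait in which ethanol 2 stood apart.

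At one splice site of Kcnma1 a transcript can carry an exon of 174 bases, known as the stress-axis regulated exon (STREX), an exon of 87 bases, or neither. STREX lies in the intracellular part of the channel and is known to raise its sensitivity to calcium. The 3 forms are shown as found in transcript variants 7, 14 and 20, since the share of reads on each form differed between libraries. Variants 7 and 14 each differ from variant 20 by that exon alone, and variant 12, which held most of the reads of the 87-base form, carries the same exon as variant 14. Each line runs 5′ to 3′ on the minus strand of chromosome 14 in GRCm38 (mm10), with the alternative exon in capitals between 24 bases of the exon before it and 24 bases of the exon after it.
Variant 7, with the coding exon at chr14:23425567-23425740: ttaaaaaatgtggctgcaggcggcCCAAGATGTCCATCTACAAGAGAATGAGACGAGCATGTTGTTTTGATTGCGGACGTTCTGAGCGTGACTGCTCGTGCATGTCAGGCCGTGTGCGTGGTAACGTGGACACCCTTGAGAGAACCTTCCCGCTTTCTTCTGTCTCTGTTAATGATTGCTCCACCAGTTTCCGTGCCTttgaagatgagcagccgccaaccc
Variant 14, with the coding exon at chr14:23390921-23391007: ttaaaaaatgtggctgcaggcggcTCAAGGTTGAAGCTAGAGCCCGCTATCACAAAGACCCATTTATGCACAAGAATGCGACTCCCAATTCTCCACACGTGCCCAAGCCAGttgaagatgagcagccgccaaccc
Variant 20, with neither exon: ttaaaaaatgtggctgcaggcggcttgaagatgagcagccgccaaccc
The sequences are from GENCODE M21 transcripts that its tables match to these RefSeq variants.

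Levels of different genes were compared per transcript length, as deposited FPKM (reads scaled to transcript length and to the reads of the library) summed over the transcripts of a gene. The gene for the neuronal beta4 subunit, Kcnmb4, stood highest at 33.2 ± 8.30 FPKM (SD, n = 6). Its values were 32.3, 29.9 and 38.4 in control 1, 2 and 3 and 22.1, 46.4 and 30.3 in ethanol 1, 2 and 3. The SK2 gene Kcnn2 followed at 6.89 ± 1.04 FPKM and the SK1 gene Kcnn1 at 4.06 ± 0.53. Kcnma1 stood at 2.64 ± 1.15, Kcnn3 at 1.39 ± 0.79 and Kcnmb2, the gene of an inactivating beta subunit, at 1.10 ± 0.31. Kcnmb1, whose beta1 subunit is best known from smooth muscle, stood at 0.177 ± 0.062 FPKM and Kcnn4 at 0.0868 ± 0.0577.

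The ranges over the 6 libraries did not touch between Kcnmb4 and Kcnn2, between Kcnn2 and Kcnn1, or between Kcnmb2 and Kcnmb1. They overlapped for the other neighbours in this order. Kcnn1 was above Kcnma1 in 5 of 6 libraries, Kcnma1 above Kcnn3 in 6 of 6, and Kcnn3 above Kcnmb2 in 3 of 6. Per length, Kcnmb4 therefore exceeded the pore gene Kcnma1 in every library. The ratio was 16.0, 12.7 and 17.7 in control 1, 2 and 3 and 5.65, 37.5 and 7.25 in ethanol 1, 2 and 3. Ethanol 1 and ethanol 3 thus lay below the control range and ethanol 2 lay above it. The ratio sets a transcript of 1005 bases against those of 4820 to 6194 bases. The part in it of the difference in mean transcript length between libraries was not tested.

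**Figure D1:**
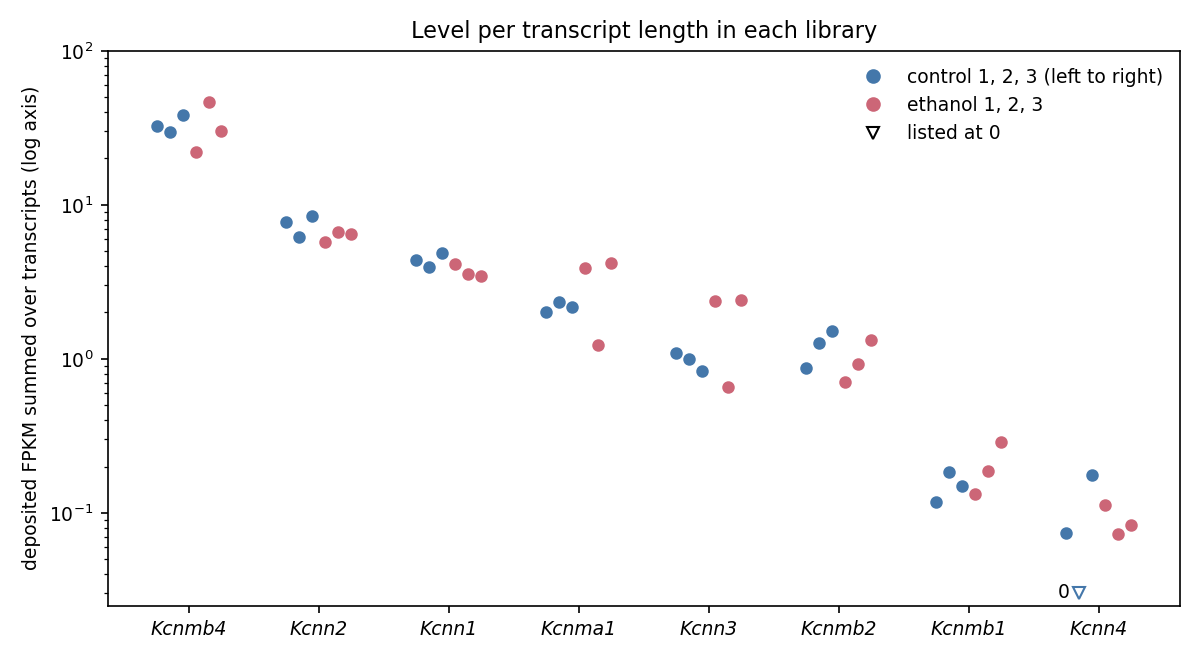
Deposited FPKM of each gene, summed over its transcripts, in each of the 6 libraries (log axis; blue points are control 1 to 3 and red points ethanol 1 to 3, from left to right; the open triangle marks a value listed at 0). Kcnmb4 lies between 22.1 and 46.4 FPKM, above every other gene, and Kcnma1 and Kcnn3 show ethanol 1 and ethanol 3 above and ethanol 2 below the control libraries.

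The comparison of ethanol with control asked whether these channel genes differed between the groups in this tissue. Kcnn3 and Kcnma1 had the largest fitted differences, both toward higher values in ethanol, and both split the ethanol libraries. Of the 7 tested genes 0 passed by edgeR's quasi-likelihood test, where 0.0% of all genes were called higher and 0.0% lower at an adjusted p under 0.05. Their values were higher in ethanol for 4 genes and lower for 3, with a median log2 fold change of 0.08 beside 0.02 over all tested genes. Between the groups 0 of the 7 were free of overlap in CPM, against 17.8% of all genes (9.35% were above the controls in ethanol and 8.41% below). At an unadjusted p under 0.05 there was 1 of 7, Kcnn3, against 10.7% of all genes.

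The BK pore gene Kcnma1 lies on chromosome 14 from 23298694 to 24004205. It stood at 13.3, 15.3 and 14.8 CPM in control 1, 2 and 3 and at 27.9, 9.15 and 27.8 CPM in ethanol 1, 2 and 3. The control libraries lay close together, ethanol 1 and ethanol 3 lay above all of them, and ethanol 2 lay below all of them. The group means were 14.5 ± 1.02 and 21.6 ± 10.8 CPM (SD, n = 3 each), and the log2 fold change of 0.58 (SE 0.36) did not pass (adjusted p = 0.566 by edgeR). Without ethanol 2 it was 0.93 (SE 0.15) and passed (adjusted p = 0.0244 by edgeR), in a fit where 1.26% of genes were called higher and 0.0628% lower. It is 1 of 6 fits that each left out a library, singled out after the values were seen, and it is no independent support for a difference.

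Of the 3 beta subunit genes 0 passed. Kcnmb4, on chromosome 10 from 116417868 to 116473523, stood at 37.9, 34.8 and 45.6 CPM in control 1, 2 and 3 and at 29.3, 59.0 and 36.5 CPM in ethanol 1, 2 and 3. Ethanol 2 was thus the highest and ethanol 1 the lowest library, the reverse of the order in Kcnma1. The log2 fold change of 0.08 (SE 0.25, adjusted p = 0.932 by edgeR) was -0.27 without ethanol 2. The genes named as antisense to it, Kcnmb4os1 and Kcnmb4os2, had 0 to 8 and 58 to 90 reads per library beside 1339 to 2424 for Kcnmb4. Whether counting used strand was not stated, so reads of overlapping genes cannot be told apart.

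Kcnmb2 stood at 3.00, 4.29 and 5.25 CPM in control 1, 2 and 3 and at 2.74, 3.43 and 4.67 CPM in ethanol 1, 2 and 3. The groups overlapped, with a log2 fold change of -0.21 (SE 0.31, adjusted p = 0.829 by edgeR). It rests on 141 to 192 reads per library. Kcnmb1 had 28 to 55 reads per library, at 0.590, 0.910 and 0.766 CPM in control 1, 2 and 3 and 0.749, 0.998 and 1.48 CPM in ethanol 1, 2 and 3. Its log2 fold change of 0.51 (SE 0.47) did not pass (adjusted p = 0.706 by edgeR), and it was 0.21 without ethanol 3, the highest library. Of 8 markers of smooth muscle and mural cells, which use this subunit, 2 were higher and 6 lower in ethanol, with summed levels of 125, 136 and 154 CPM in the controls, beside 103, 94.1 and 117 CPM in the ethanol libraries. The part of these cells in the Kcnmb1 values was not tested, and in bulk tissue fewer cells of a type and less RNA per cell cannot be told apart.

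**Figure D2:**
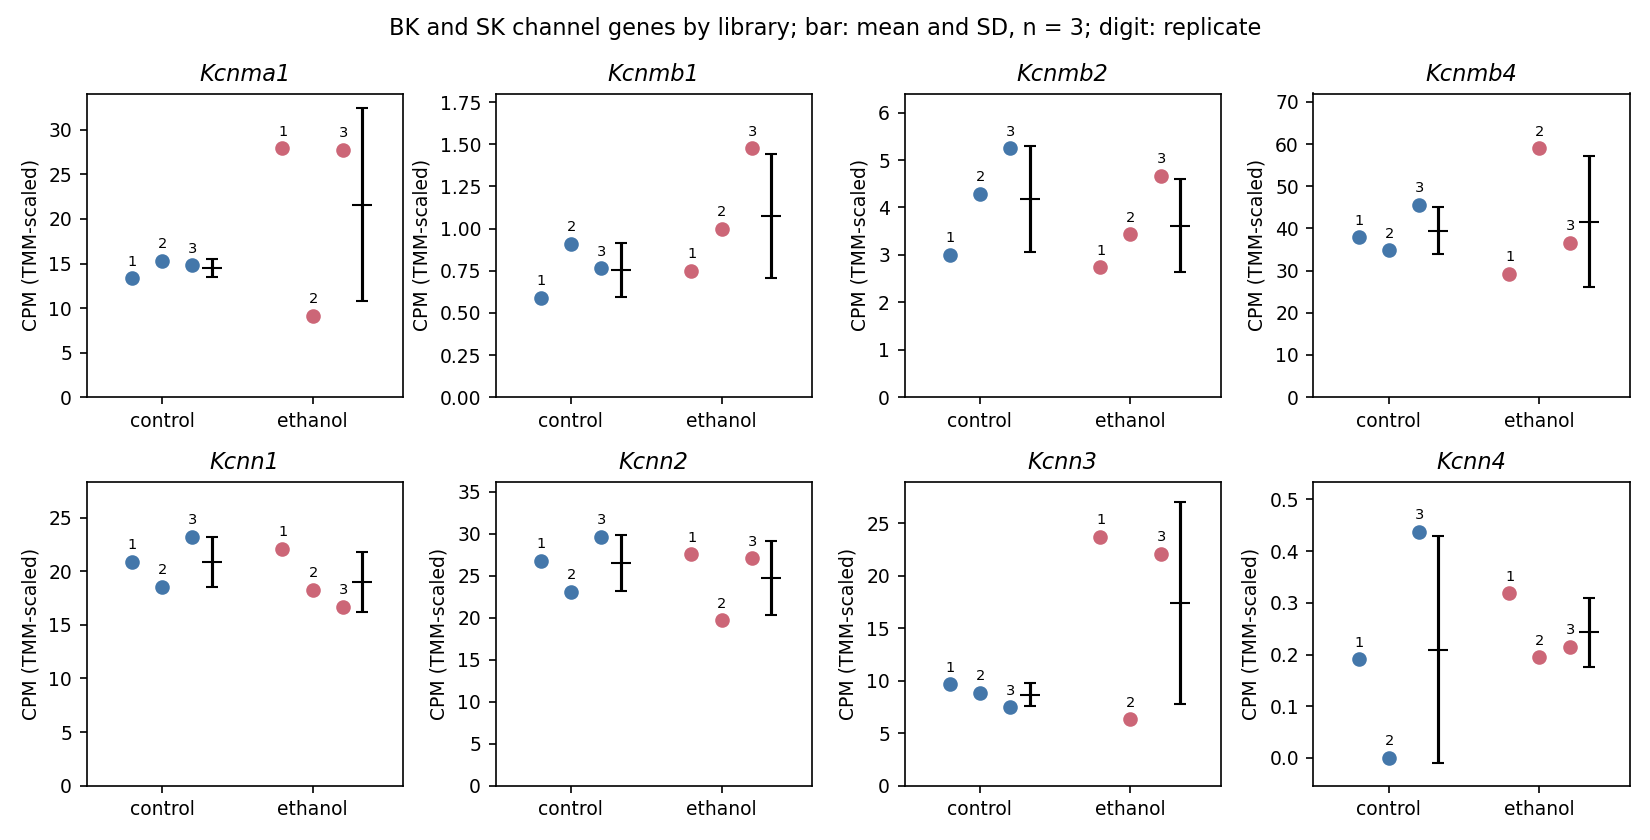
Level of each gene in TMM-scaled CPM in the 3 control and 3 ethanol libraries (linear axes; points are libraries with their replicate number, bars are the mean and SD of 3). In Kcnma1 and Kcnn3 ethanol 1 and ethanol 3 lie above and ethanol 2 below the control libraries, whereas in Kcnmb4 ethanol 2 is the highest library at 59.0 CPM.

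Among the SK pore genes Kcnn3 had the largest difference and Kcnn1 and Kcnn2 the smallest SE. Kcnn3, on chromosome 3 from 89520164 to 89672494, stood at 9.68, 8.84 and 7.49 CPM in control 1, 2 and 3 and at 23.7, 6.31 and 22.1 CPM in ethanol 1, 2 and 3. As in Kcnma1, ethanol 1 and ethanol 3 lay above all control libraries and ethanol 2 below all of them. The log2 fold change of 1.003 (SE 0.41) had an unadjusted p of 0.0357 and did not pass (adjusted p = 0.450 by edgeR). Without ethanol 2 it was 1.39 (SE 0.17) and passed (adjusted p = 0.0115 by edgeR), with the same limit as for Kcnma1. It was 0.71 without ethanol 1 and 0.80 without ethanol 3, and did not pass in either fit. SK3 channels occur in glia as well as in neurons. Of 5 astrocyte markers 4 were higher in ethanol, and their summed level was 735, 998 and 689 CPM in the controls, beside 1229, 881 and 1090 CPM in the ethanol libraries. Ethanol 1 and ethanol 3 were the highest in that sum too, ethanol 2 lay within the control range, and its part in the Kcnn3 values was not tested.

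Kcnn2 stood at 26.8, 23.1 and 29.7 CPM in control 1, 2 and 3 and at 27.6, 19.7 and 27.1 CPM in ethanol 1, 2 and 3. Ethanol 1 and ethanol 3 lay within the control range and ethanol 2 below it, and the log2 fold change was -0.10 (SE 0.19, adjusted p = 0.875 by edgeR). Kcnn1, on chromosome 8 from 70842049 to 70857008, stood at 20.9, 18.6 and 23.2 CPM in the controls, beside 22.1, 18.3 and 16.7 CPM in the ethanol libraries, with a log2 fold change of -0.13 (SE 0.18, adjusted p = 0.805 by edgeR). These genes had the smallest SE of the 7, and a difference of the size of that SE would not be detectable with these libraries. Kcnn4, known from red blood cells, T cells and microglia, had 11, 0 and 16 reads in control 1, 2 and 3 and 20, 8 and 8 in ethanol 1, 2 and 3. These are 0 to 0.437 CPM, and the gene fell under the low-count filter. Fold changes at this depth are given only in the last section, for the alternatives that kept the gene.

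**Figure D3:**
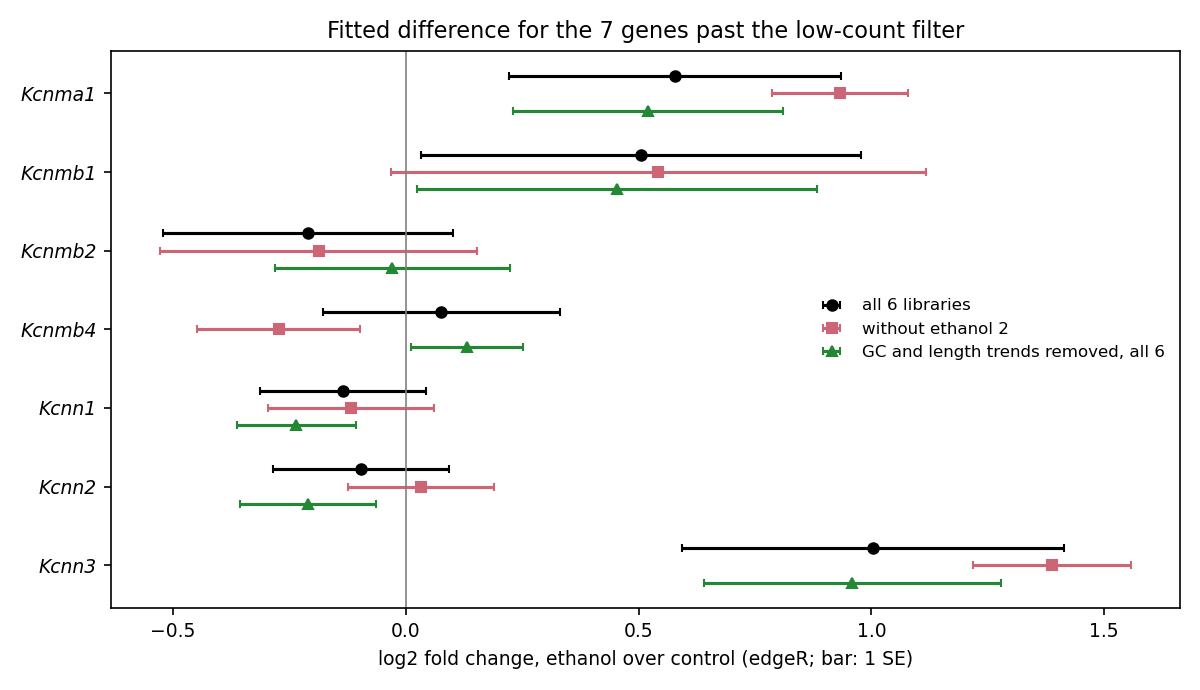
Log2 fold change of ethanol over control by edgeR for the 7 tested genes, with bars of 1 SE, from all 6 libraries (black circles), without ethanol 2 (red squares) and with trends of GC content and transcript length removed from all 6 (green triangles). Kcnn3 moves from 1.003 to 1.39 and Kcnma1 from 0.58 to 0.93 when ethanol 2 is left out, while Kcnmb4 changes sign.

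The order of the libraries in Kcnma1 and Kcnn3 was compared with that of other genes. Over all tested genes 7.38% had ethanol 1 and ethanol 3 above all control libraries and ethanol 2 below all of them. This pattern was defined from the values of Kcnma1 and Kcnn3. That these 2 of the 7 channel genes have it is therefore no result. Transcripts of Kcnma1 are 4820 to 6194 bases long and that of Kcnn3 7617 bases, whereas that of Kcnmb4 has 1005 bases. Ethanol 2, with the shortest read-weighted mean length, had the lowest Kcnma1 and Kcnn3 and the highest Kcnmb4, while the control libraries had the order of their mean lengths in Kcnn3 and not in Kcnma1. When a trend on length was removed from each library, the log2 fold change of Kcnma1 was 0.51 with all libraries and 0.80 without ethanol 2, where it no longer passed (adjusted p = 0.0600 by edgeR) and 0.578% of genes were called higher. That of Kcnn3 was 0.94 with all libraries and 1.23 without ethanol 2, where it passed (adjusted p = 0.0274 by edgeR). With trends of both GC content and length removed, both genes passed without ethanol 2, Kcnma1 at 0.81 (adjusted p = 0.0346 by edgeR) and Kcnn3 at 1.25 (adjusted p = 0.0206 by edgeR), where 1.04% of genes were called higher. With all libraries neither gene passed after removal of the length trend (adjusted p = 0.381 for Kcnma1 and 0.221 for Kcnn3 by edgeR). The same held after removal of both trends (adjusted p = 0.361 and 0.182 by edgeR). The trend fits and the omission of ethanol 2 were chosen after the values were seen, and they are no independent support for a difference. Other differences between these libraries were not tested.

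**Figure D4:**
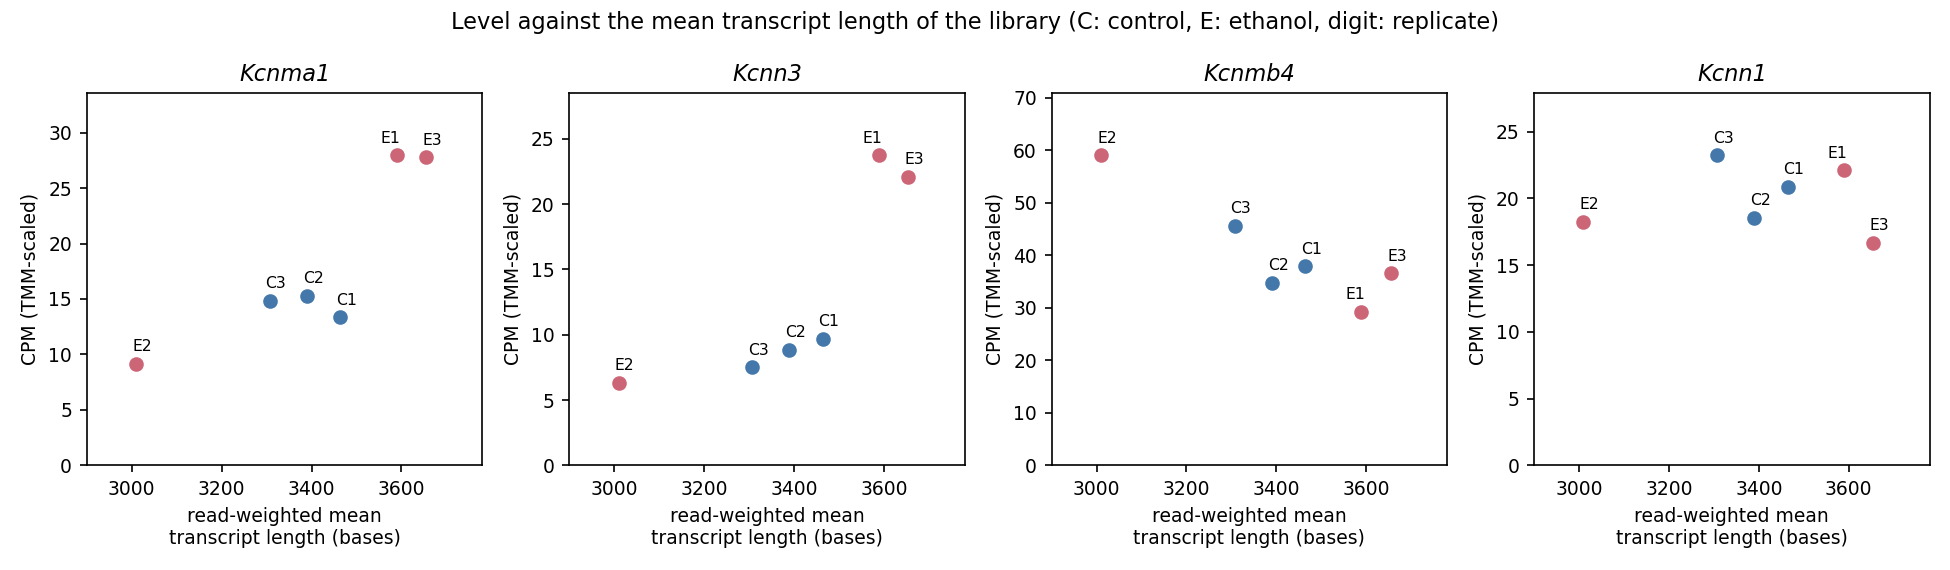
CPM of 4 of the genes (vertical axes from 0) against the read-weighted mean transcript length of each library in bases, with control libraries in blue (C1 to C3) and ethanol libraries in red (E1 to E3). Ethanol 2 has the shortest mean, at 3010 bases, with the lowest Kcnma1 and Kcnn3 and the highest Kcnmb4, while ethanol 1 and ethanol 3 lie at 3589 and 3654 bases with the highest Kcnma1 and Kcnn3.

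For each pore gene the 3 genes nearest in pattern were taken, by the root mean square difference in log2 CPM after centring each gene on its mean over the 6 libraries. For Kcnma1 they were Erich3 (0.108), Plcb4 (0.118), a phospholipase C gene, and Strn (0.133), which encodes the scaffold striatin. Plcb4 stood at 24.1, 25.5 and 27.4 CPM in the controls, beside 43.3, 13.4 and 48.3 CPM in the ethanol libraries. For Kcnn3 they were Garem (0.112), Kcnq3 (0.129), which encodes a subunit of the M-type potassium channel, and Mtmr9 (0.130). Kcnq3 stood at 6.73, 5.69 and 6.29 CPM in the controls, beside 19.0, 4.87 and 15.7 CPM in the ethanol libraries. Both show the same split of the ethanol libraries as the 2 channel genes. Such likeness, here and below, follows from how the genes were picked and is no separate result. The nearest genes to Kcnn1 were Klc4 (0.0439), Cog2 (0.0479) and Bak1 (0.0480), and those to Kcnn2 were Nos3 (0.0372), Eng (0.0421) and Tulp3 (0.0467), with ethanol 2 the lowest library in each of the latter group.

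The estimated reads of Kcnma1 moved between its transcripts from library to library. Of its 22 transcripts 3 had 0 reads throughout, and 7 to 14 had reads in a library. Variant 7, with STREX, held 127, 285 and 328 reads in control 1, 2 and 3 and 0, 41 and 0 in ethanol 1, 2 and 3. Variant 20, which has neither exon and the same 3′ end, held 0 in every control library and 745, 0 and 534 in ethanol 1, 2 and 3. Variant 12, with the 87-base exon, held 280, 16 and 21 in the controls, beside 0, 219 and 0 in the ethanol libraries. By transcript, 6 of the 22 passed the low-count filter, variants 7 and 12 among them. Variant 20 fell under it and was not tested. Of the 6, 0 passed edgeR's test at an adjusted p under 0.05, where 0.0% of 22527 transcripts did. The adjusted p of variant 7 was 0.756 by edgeR, with a log2 fold change of -4.22 (SE 2.13).

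Summed over the 6 transcripts whose matched model carries it, STREX was on 17.3%, 50.3% and 64.0% of the Kcnma1 reads in control 1, 2 and 3, and on 0.570%, 11.4% and 1.45% in ethanol 1, 2 and 3. The 95% Wilson intervals were 14.8% to 20.1%, 46.2% to 54.3% and 59.9% to 68.0% in the controls, beside 0.310% to 1.05%, 8.60% to 15.1% and 0.880% to 2.38% in the ethanol libraries. They cover counting error only, and not the division of reads among transcripts, since most of each transcript is shared. All ethanol libraries lay below all control libraries, with ethanol 2 nearest to control 1. The group means were 43.9% ± 24.0 and 4.48% ± 6.04 (SD, n = 3 each). In CPM the same transcripts summed to 2.31, 7.69 and 9.49 in the controls, beside 0.159, 1.05 and 0.403 in the ethanol libraries. This sum was chosen after its values were seen and has no test. The cortical marker sum was also lower in every ethanol library, though highest in control 1, where the STREX share was the lowest of the controls, and its part in the share was not tested. Among the 13535 transcripts of genes with several transcripts and at least 50 reads in each library, the share of a transcript was lower in every ethanol library than in every control library in 5.13%, and higher in 6.21%. These are shares of single transcripts. No matching share was computed for sums over several transcripts, such as the one for STREX.

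The 87-base exon, on 3 transcripts, was on 39.8%, 2.72% and 3.88% of the reads in the controls, beside 0%, 59.3% and 0% in the ethanol libraries, where 0 reads allow up to 0.171% in ethanol 1 and 0.290% in ethanol 3. The groups overlapped, with control 1 and ethanol 2 high. Of the 13 transcripts counted with neither exon 8 share a GENCODE model with another transcript, some of a different length, so their exons are less certain, as are those of 2 of the 6 with STREX. Variants 7, 12, 14 and 20 each have a model of their own. Transcripts of the class with neither exon took 42.9%, 47.0% and 32.1% of the reads in the controls, beside 99.4%, 29.3% and 98.6% in the ethanol libraries. In contrast, the 5 transcripts that share an alternative 3′ end, variants 7, 12, 14, 19 and 20, took 56.3%, 51.1% and 65.5% in the controls, beside 42.6%, 70.2% and 51.8% in the ethanol libraries, so the reads of that end were spread over different exon forms. Of the 13535 transcripts above, 18 (0.133%) had 0 reads in ethanol 1 and ethanol 3 and reads in the other 4 libraries, variants 7 and 12 among them. The reverse, reads in ethanol 1 and ethanol 3 alone, held for 205 (1.51%), variant 20 among them. Both patterns were defined from the counts of these variants, so their own presence in them is no result.

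Kcnn2 had 2 transcripts, variant 1 of 3691 bases and variant 2 of 2046 bases. Variant 2 took 31.8%, 19.1% and 31.0% of the Kcnn2 reads in the controls, beside 1.21%, 71.1% and 7.73% in the ethanol libraries. Ethanol 1 and ethanol 3 lay below the control range and ethanol 2 above it, while the gene's summed level differed little. The shorter transcript was thus highest in the library with the shortest mean transcript length. The part of that difference between libraries in the transcript shares of Kcnma1 and Kcnn2 was not tested.

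**Figure D5:**
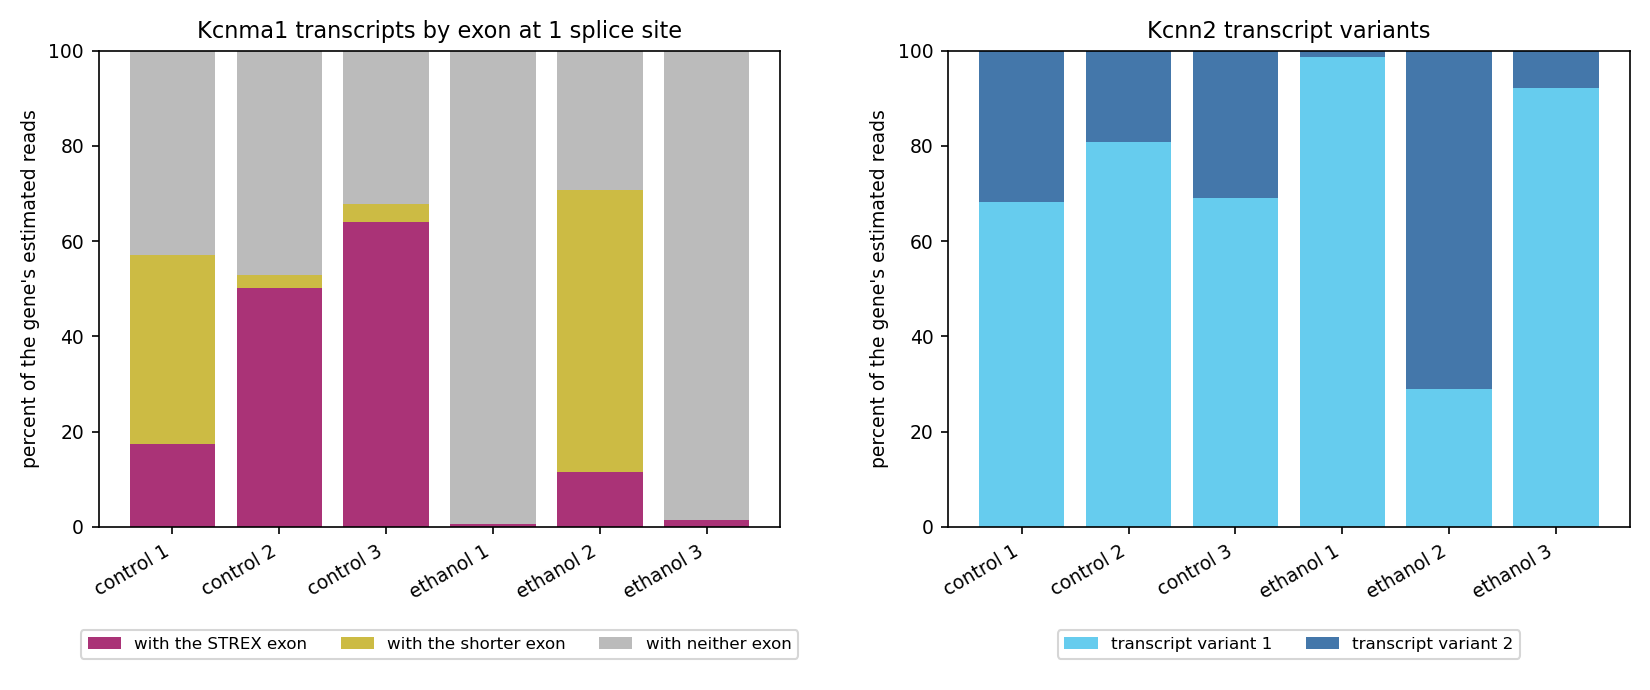
Percent of estimated reads by transcript class in each library, for Kcnma1 (left: transcripts with STREX, with the shorter 87-base exon or with neither, by matched gene model) and for Kcnn2 (right: variants 1 and 2). Ethanol 1 and ethanol 3 have 99.4% and 98.6% of Kcnma1 reads on transcripts with neither exon, and ethanol 2 has 71.1% of Kcnn2 reads on variant 2.

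Genes that work with these channels were described from 6 lists with 34 genes, of which 31 were tested and 0 passed by edgeR, while 15 were higher and 16 lower in ethanol, with a median log2 fold change of -0.0063 beside 0.02 over all tested genes. At an unadjusted p under 0.05 there were 4, Kcnt1, Ryr1, Ryr3 and Itpr1, which were also the 4 whose groups did not overlap (1 with ethanol above and 3 below). Over all tested genes 10.7% had such a p and 17.8% had no overlap, so 4 of 31 does not set these lists apart, and the values of the 4 are given as a description. Itpr1, the inositol trisphosphate receptor that releases calcium from the endoplasmic reticulum, stood at 111, 116 and 89.0 CPM in the controls, beside 285, 134 and 215 CPM in the ethanol libraries. Every ethanol library lay above the highest control, with a log2 fold change of 1.003 (SE 0.26, adjusted p = 0.419 by edgeR). The ryanodine receptor genes Ryr1 and Ryr3, also calcium release channels, lay lower in all ethanol libraries, at a log2 fold change of -0.88 for Ryr1 (adjusted p = 0.419 by edgeR) and of -0.80 for Ryr3 (adjusted p = 0.468 by edgeR). Of the 6 release channel genes 1 was higher and 5 lower. The cortical marker sum given above was lower in ethanol as well, with its libraries in the same order as in Ryr3, and its part in the Ryr1 and Ryr3 values was not tested.

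Of the 8 pore genes of voltage-gated calcium channels, which supply the calcium that opens BK and SK channels, 4 were higher and 4 lower, with a median of -0.06. Cacna1i, a T-type pore, had the smallest unadjusted p of that list (0.0579), with a log2 fold change of 0.51 (SE 0.24). Cacna1b, Cacna1c and Cacna1e showed the split of the ethanol libraries seen in Kcnma1. These were 3 of the 31 tested genes of the 6 lists, beside 7.38% of all tested genes, so the count does not set the lists apart. Cacna1e, the R-type pore, stood at 42.1, 38.7 and 17.9 CPM in the controls, beside 84.9, 11.2 and 81.8 CPM in the ethanol libraries. The 8 SK complex partners, which are the calmodulins, casein kinase 2 and protein phosphatase 2A, had 6 higher and 2 lower with a median of 0.09, and Calm3 led them at 0.26 (SE 0.15). Of the other Slo channels, related in sequence to BK, 3 of 3 were lower, led by the sodium-activated channel gene Kcnt1 at 208, 144 and 167 CPM in the controls, beside 120, 83.7 and 128 CPM in the ethanol libraries (log2 fold change -0.65, SE 0.21, adjusted p = 0.438 by edgeR). The cortical marker sum had its libraries in the same order as Kcnt1, and its part in the Kcnt1 values was not tested. Among the other BK subunits Kcnmb3 had 0 reads in all libraries, Lrrc26 and Lrrc52 fell under the filter, and Lrrc38 and Lrrc55, genes of gamma subunits, had 1 value higher and 1 lower, with 0.06 (SE 0.31) for Lrrc38. Of the 4 binding proteins 3 were higher, led by Mpp2, a scaffold that binds SK2, at 0.39 (SE 0.20).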

How the data were processed

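The authors deposited 1 table with a row per RefSeq transcript and, per the file headers, a read count and an FPKM for each of 6 samples. The submitters' processing notes name mm10 and bcl2fastq. For the aligner and counter, no name was given in the sources used here. Counts in the deposited table are estimated counts. They equalled FPKM times length times a library constant, rounded up, for 100.0% of the 16181 to 19405 transcripts checked per library (tolerance 0.05 reads). Whole-number counts of the 36780 transcripts were summed by gene identifier.

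Genes kept by filterByExpr (minimum count 10) were compared with edgeR 4.0.16 (R 4.3.3; TMM, glmQLFTest, group as the only term, two-sided) and Benjamini-Hochberg adjustment at 0.05. The biological coefficient of variation was 0.252. SE is the fold change over the root of F. DESeq2 1.42.0, limma 3.58.1, other scalings and filters, a replicate block and leaving out each sample were also tried. Removal of trends on length and GC content (loess span 0.3, GC for 97.0% of tested genes) and sample weights were chosen after seeing the data. The test was tested on simulated data. Exons came from GENCODE M21, whose tables matched 22 of 22 Kcnma1 transcripts to 16 models.

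The named genes were all 8 channel genes, per list of related genes those that passed or else the smallest p, genes a result turns on (Ryr1, Ryr3, Cacna1b, Cacna1c and Cacna1e, picked after their values were seen), and for 4 pore genes the 3 nearest patterns with a mean log2 CPM of at least 1. Members and lists were chosen with earlier results of these data known.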

Additional observations from a re-analysis of the deposited data

How the results depend on the processing

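Over 18 alternatives, the 7 tested channel genes kept their direction except Kcnmb4 and Kcnn2, and 0 passed other than Kcnma1 and Kcnn3 without ethanol 2. The log2 fold change of Kcnma1 lay between 0.35 (without ethanol 1) and 0.93, with adjusted p from 0.0244 to 0.933, and that of Kcnn3 between 0.71 and 1.39, with adjusted p from 0.0115 to 0.933. Without ethanol 2, with trends removed, they were 0.81 for Kcnma1 (GC and length) and 1.23 (length) and 1.25 (GC and length) for Kcnn3. Kcnmb4 was -0.0059 with total counts only, -0.14 with limma-voom sample weights, -0.0035 without control 2, -0.27 without ethanol 2, and -0.035 without ethanol 2 with the length trend removed. Over fits that left out a library it lay between -0.27 and 0.28. Kcnn2 was 0.032 without ethanol 2, the highest of fits that left out a library, and -0.18 without control 2, the lowest. The cause of these changes was not tested. DESeq2 called 145 genes, 51 higher and 94 lower, none of them a channel gene (Kcnn3 adjusted p = 0.257), against 0 by edgeR with 1681 at an unadjusted p under 0.05, and 0 by limma-voom. Fits without 1 library called 0 to 211 genes, with 1 without control 1 and 211 without ethanol 2, which became 92 with the length trend removed and 175 with GC and length trends removed. The replicate block called 0 genes and gave 0.82 for Kcnn3 and 0.43 for Kcnma1. No label says what a replicate number stands for, so the numbers were not taken to pair samples. Deviations of same-numbered libraries correlated at 0.146, -0.031 and -0.0173, and those of other pairs at -0.217 to 0.188. Deviations from a mean of 3 depend on one another, so these values cannot settle whether samples were paired. The STREX share differed by -29.3 to -52.7 percentage points over its 8 alternatives, beside -39.4 with all libraries. Since the groups did not overlap, leaving out a library could not change the sign. The other alternatives rest on the same division of reads among transcripts, so the range is no support for a difference. Kcnn4 fell under the filter with all libraries. In the 7 alternatives that kept it the value lay between -0.31 (without control 2, which had 0 reads) and 0.39, with an SE of 0.66 to 1.31, and did not pass. As TPM in place of FPKM, the log2 group ratio of Kcnma1 went from 0.51 to 0.655 and that of Kcnn3 from 0.89 to 1.04. That of Kcnmb4 went from -0.027 to 0.016.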
